A study of Mus musculus with 14 samples.

Results

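Liver tumours of a mouse series were split by how much hepatocyte RNA they held, across genotypes. Each of the 14 tumour libraries was scored by the mean of log2(CPM + 1) over 8 hepatocyte genes, where CPM is a gene's count scaled to the total count of the library. The groups were chosen by this score: the 7 libraries with the highest scores are called hepatocyte-high and the other 7 hepatocyte-low. The score genes were Alb (albumin), Apoa1 (the main protein of high-density lipoprotein), Cps1 and Otc (urea cycle enzymes), Abcb11 (the bile salt export pump), Acadm (a fatty acid oxidation enzyme), Ttr (transthyretin) and Fgb (a fibrinogen chain). The split was made from measured values and is not a grouping of the study. A p-value for any other gene therefore says only whether that gene followed the score over these 14 libraries.

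Hepatocytes secrete most plasma proteins and hold the enzymes of urea, bile acid, lipid and drug metabolism. A network of liver-enriched transcription factors, among them HNF4A, CEBPA and the FOXA proteins, keeps these genes active together. In the normal lobule, signalling through β-catenin sets the gene programme of the hepatocytes around the central vein. Liver cancers range from well differentiated tumours, which keep many of these genes on, to poorly differentiated tumours that express few of them.

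All tumours were raised by hydrodynamic injection, a method that transfects hepatocytes in place, and the plasmids carried mouse c-Myc and mouse β-catenin. The hepatocyte-high group held 3 CDK18KO tumours (knockout of Cdk18), 3 DKO tumours (knockout of Cdk16 and Cdk18) and 1 WT tumour, and the hepatocyte-low group held 2 CDK18KO, 1 DKO and 4 WT tumours. The labels list the same treatment for every library, whatever its genotype: tamoxifen at 75 mg/kg for 5 days. They also list a time after tamoxifen of 10 days, an endpoint diameter of 15 mm and an endpoint time of 8 weeks. Per the labels, Cdk16 was removed from established tumours with floxed alleles, Cre-ERT2 and tamoxifen, and Cre-ERT2 controls were given tamoxifen too. The labels state neither the promoter that drives Cre-ERT2 nor the strain, age and sex of the mice, nor which WT and CDK18KO tumours were such controls. RNA was sequenced from the 3′ end (QuantSeq), and each library is a biological replicate from its own mouse, as far as the series' design text tells.

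Library totals ran from 1442417 to 6068209 counts; no difference in mean between the groups was detected in these totals (exact permutation test, two-sided, p = 0.693) or in the mitochondrial share of counts (p = 0.818). Cdk18 was low in every library, at 0.563 to 10.4 in hepatocyte-high and 1.26 to 5.24 CPM in hepatocyte-low libraries, and Cdk16 stood at 17.8 to 48.5 CPM in the DKO and 40 to 59.2 CPM in the WT libraries. The 3′ tags may lie outside the deleted exons, so these levels do not check the knockouts. Summed Y-linked expression was above 100 CPM in 3 libraries, all of them hepatocyte-low: CDK18KO 1 at 361 CPM, WT 5 at 709 CPM and WT 3 at 234 CPM. WT 1 stood at 33.6 CPM and WT 4 at 19.4 CPM, both hepatocyte-low, and each remaining library at 7.28 CPM or less. WT 2, the hepatocyte-high WT library, had 4.61 CPM, so within WT the split and Y-linked expression cannot be told apart. Y-linked expression thus moved with the split. Counts are also given without the 3 libraries above 100 CPM, which leaves WT 1 and WT 4 in, or with Y-linked expression as a covariate.

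Scores ran from 7.80 to 9.82 in the hepatocyte-high and from 3.47 to 6.98 in the hepatocyte-low libraries. The library just inside the upper group was WT 2, at 7.80, and the library just outside it was CDK18KO 1, at 6.98. By genotype, the score averaged 8.07 ± 1.33 in CDK18KO tumours (SD, n = 5), 8.46 ± 1.39 in DKO tumours (n = 4) and 5.23 ± 1.79 in WT tumours (n = 5). Genotype therefore went partly with the split, and every comparison was fitted again with genotype as a covariate. These scores chose the groups and are given as a description.

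**Figure D1:**
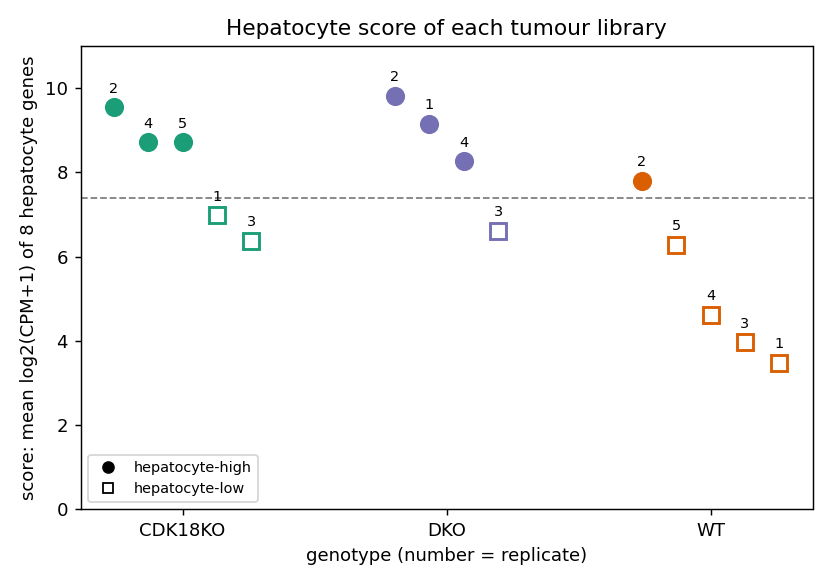
Score of each library (mean log2(CPM+1) of 8 hepatocyte genes, vertical axis) by genotype; filled circles are hepatocyte-high and open squares hepatocyte-low libraries, the number is the replicate, and the dashed line lies midway between scores 7.80 and 6.98. Of the 5 WT tumours, 1 lies above the line, against 3 of the 5 CDK18KO and 3 of the 4 DKO tumours.

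Albumin RNA reached 358, 1081 and 3294 CPM in the hepatocyte-high libraries (lowest, median and highest, as in every set of 3 values that follows), against 32.1, 130.5 and 622 CPM in the hepatocyte-low libraries. Ttr stood at 286, 593 and 1549 against 15.1, 74.5 and 206 CPM, and Otc at 33.5, 106 and 309.9 against 0.755, 5.55 and 32.3 CPM. Albumin overlapped between the groups, as did Cps1 and Acadm, the last at 112, 334 and 1022 CPM in hepatocyte-high and 48.6, 119 and 189 CPM in hepatocyte-low libraries. These genes set the groups, so their differences are no result; each of them was still detected in every hepatocyte-low library. In bulk tissue, fewer hepatocyte-like cells and less hepatocyte RNA per cell cannot be told apart, and the name dedifferentiated is not used here for that reason.

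Of 13989 other genes tested, 2461 were higher in the hepatocyte-high libraries (17.6%) and 1712 lower (12.2%), so that 29.8% were called at an adjusted p under 0.05. The median log2 fold change was 1.86 among the higher and -1.36 among the lower genes, and 1132 of the higher and 546 of the lower genes passed 4-fold. With genotype as a covariate, 1511 genes were higher (10.8%) and 1085 lower (7.76%), 18.6% of those tested. Of these, 1503 higher and 1033 lower genes were called in the same direction in both fits. This second fit depended on single knockout tumours. Its 2596 calls became 828 without DKO 3, the only hepatocyte-low DKO library. Without DKO 3 the DKO tumours hold no contrast between the groups within their genotype. The calls became 1511 without CDK18KO 1 and 1603 without CDK18KO 3, and the 1085 lower calls became 702 without DKO 2. Without the 3 libraries high in Y-linked expression, 1837 genes were higher and 1268 lower in the first fit, and with Y-linked expression as a covariate 1048 were higher and 652 lower. Higher calls made up 59.0% of all calls with TMM scaling and 47.8% with upper-quartile scaling, which moved the median log2 fold change of all genes to -0.18, against -0.04 with TMM. They made up 69.2% with no filter on low counts. Levels of these genes are TMM-scaled CPM, and changes are log2 fold changes of hepatocyte-high over hepatocyte-low libraries with edgeR's SE and adjusted p. A call kept in every setting is one kept under each alternative to the first fit, each left-out library and each covariate included.

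**Figure D2:**
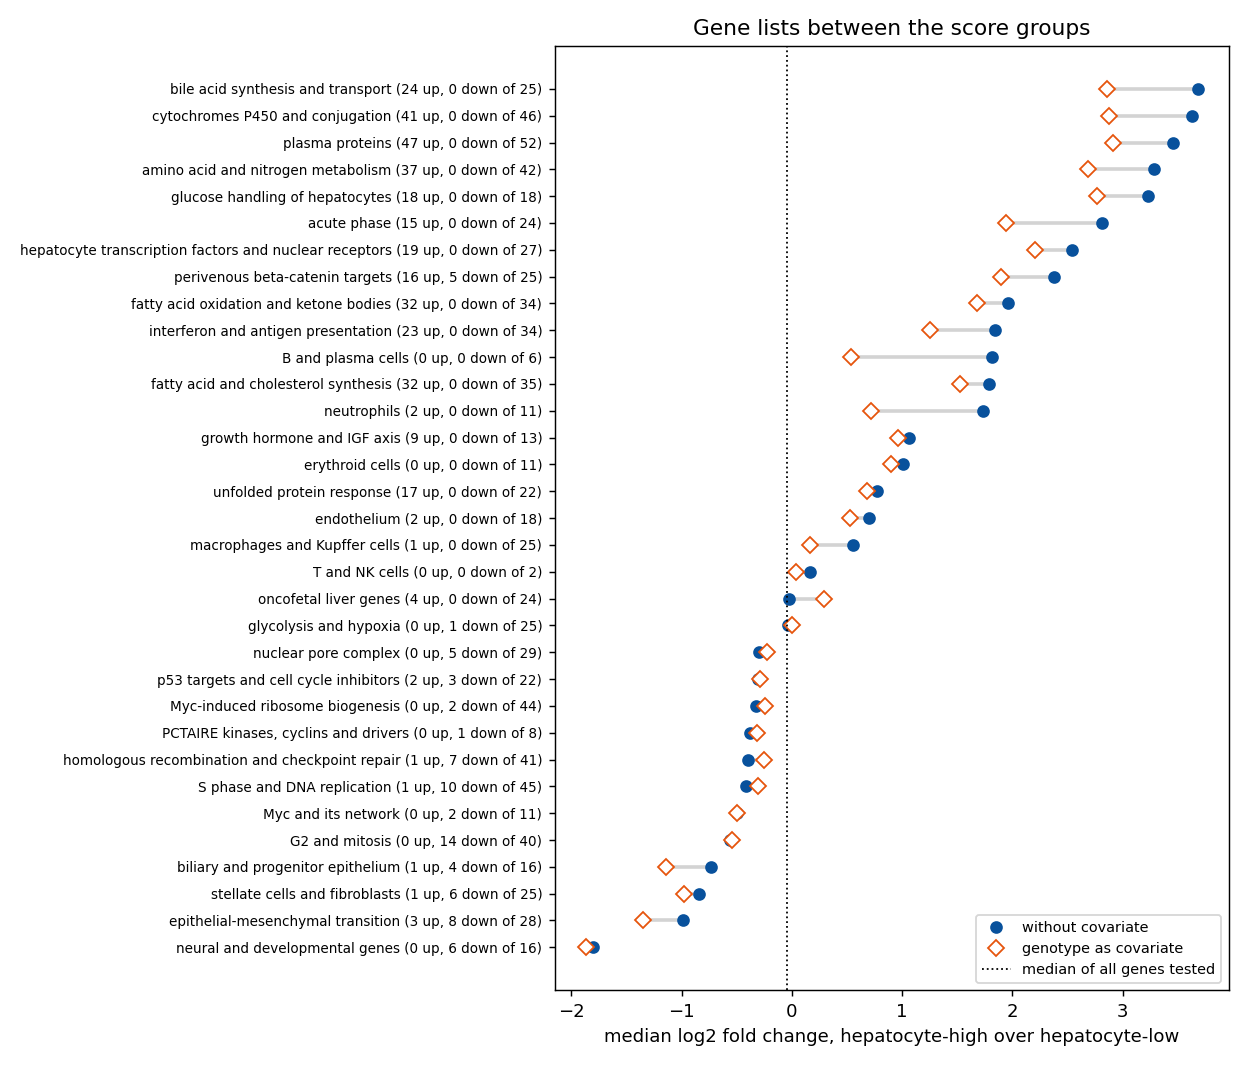
Median log2 fold change (horizontal axis) of 33 gene lists, with circles for the fit without a covariate and diamonds for the fit with genotype as covariate; the count of members called higher (up) and lower (down) stands beside each name, and the dotted line is the median of all genes tested. The hepatocyte lists lie between 1.79 and 3.68 without the covariate. The neural and developmental list is lowest at -1.80, a median over the 16 of its 33 genes that passed the filter on low counts. The filter kept genes that were high in the hepatocyte-low tumours, so the 16 do not stand for that list.

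Most liver transcription factors followed the score. Of the 27 listed factors and nuclear receptors, 19 were higher in the hepatocyte-high libraries and none was lower. Their median log2 fold change was 2.54, against -0.04 over all genes. With genotype as covariate 17 were higher, and 13 with Y-linked expression as covariate. Of all genes tested, 17.6% were higher, 10.8% with genotype and 1048 of 13989 with Y-linked expression as covariate. Foxa3, a forkhead factor that binds liver enhancers, had the smallest p of all genes tested. It stood at 76.9, 129.8 and 209 CPM in hepatocyte-high libraries, against 3.78, 9.26 and 15.2 CPM in hepatocyte-low libraries, and its log2 fold change was 3.82 (SE 0.35, adjusted p = 0.000129). The groups did not overlap in any genotype: the 3 CDK18KO and 3 DKO hepatocyte-high tumours lay at 83.4 CPM or more, and the single hepatocyte-low DKO tumour at 7.77 CPM.

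Hnf4a, the nuclear receptor at the centre of the hepatocyte network, stood at 31.1, 97.1 and 169 CPM against 0, 5.18 and 24.2 CPM, a change of 3.76 (SE 0.74, adjusted p = 0.00197). No hepatocyte-low library reached the lowest hepatocyte-high one, and WT 1 had no Hnf4a count. Cebpa, a factor that drives metabolic genes of the adult hepatocyte, measured 101, 249 and 316 CPM against 12.9, 25.3 and 84.2 CPM, with a change of 2.87 (SE 0.39, adjusted p = 0.000381) and no overlap. Rxra, the partner of most metabolic nuclear receptors, changed by 2.60 (SE 0.33, adjusted p = 0.000373), and Atf5, a leucine zipper factor abundant in liver, by 2.46 (SE 0.36, adjusted p = 0.000491). The bile acid receptor Nr1h4 (FXR) changed by 3.27 (SE 0.63, adjusted p = 0.00187), the xenobiotic receptors Nr1i2 (PXR) by 3.87 (SE 0.78, adjusted p = 0.00234) and Nr1i3 (CAR) by 3.91 (SE 0.78, adjusted p = 0.00225), and Creb3l3, a membrane-bound factor of fasting metabolism, by 3.85 (SE 0.68, adjusted p = 0.00121). These 8 factors kept their calls in every setting tried. Other factors of the network were not called: Foxa1 had a log2 fold change of -0.55 (adjusted p = 0.401), Foxa2 of -0.29 (adjusted p = 0.644) and Prox1 of 0.28 (adjusted p = 0.694). Foxa1 and Foxa2 are the pioneer factors of liver specification, with medians of 6.67 and 145 CPM in hepatocyte-high libraries, against 11.6 and 238 CPM in hepatocyte-low libraries.

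Promoter letters of HNF4 and of E-box factors were counted in the RefSeq windows (build GRCm38.p6) that run from 250 bases before to 50 after each gene's start. A window was found for 9621 of the protein-coding genes tested (80.5%), among them 1793 of those called higher and 1228 of those called lower. The HNF4 letters CAAAGTCCA, searched on both strands, stood in 34 of 2351 windows of genes called higher (1.45%) and in 3 of 1619 windows of genes called lower (0.185%). They stood in 0.461% of windows of all tested genes and in 0.475% of all 32851 windows of the table. The E-box CACGTG, a letter pattern read by Myc and other factors, was in 10.1% of windows of the higher and 10.1% of windows of the lower genes, 9.83% of the tested and 7.15% of all windows. Neither pattern contains the other, and a match describes the sequence and is not a binding site. Sec16b is among the higher genes with HNF4 letters, although the window of another Sec16b start holds none. The 250 bases before the start whose window has them (chr1:157525920-157526169, plus strand) are shown as an example. Capitals mark the HNF4 letters, here on the opposite strand, which begin 34 bases before the start.
Sec16b: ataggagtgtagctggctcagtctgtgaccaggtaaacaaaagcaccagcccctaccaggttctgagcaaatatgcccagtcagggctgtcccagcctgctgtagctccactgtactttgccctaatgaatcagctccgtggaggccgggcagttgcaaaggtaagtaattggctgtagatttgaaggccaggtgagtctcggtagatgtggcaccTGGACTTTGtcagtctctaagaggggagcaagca
Sec16b, a protein of the sites where vesicles leave the endoplasmic reticulum, stood at 8.65, 33.4 and 62.8 CPM in hepatocyte-high libraries and 2.21, 4.45 and 8.7 CPM in hepatocyte-low libraries, with a slight overlap and a change of 2.93 (SE 0.44, adjusted p = 0.000565).

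Plasma protein genes were higher in the hepatocyte-high libraries. Of 57 listed, 52 were tested, 47 were higher and none lower, with a median of 3.46; 33 of the 52 did not overlap between the groups, where 4.42% of all genes tested had every hepatocyte-high library above every hepatocyte-low one. With genotype as covariate 41 were higher, with a median of 2.91. Of all genes tested, 17.6% were higher, 10.8% with genotype and 1048 of 13989 with Y-linked expression as covariate. F2, the precursor of thrombin, stood at 266, 545 and 1016 CPM in hepatocyte-high libraries, against 8.16, 42.4 and 113 CPM in hepatocyte-low libraries, a change of 3.57 (SE 0.52, adjusted p = 0.000492). Kng1, the kininogen from which bradykinin is released and whose reads may be shared with its close copy Kng2, changed by 3.68 (SE 0.54, adjusted p = 0.000513), Itih3, a heavy chain that binds hyaluronan, by 3.54 (SE 0.54, adjusted p = 0.000579), and Lcat, which esterifies cholesterol on plasma lipoproteins, by 4.87 (SE 0.70, adjusted p = 0.000444). Lcat was near 0 in the hepatocyte-low libraries, at 0, 0.945 and 3.11 CPM, against 7.42, 26.1 and 91.8 CPM. The acute phase genes, which the liver secretes in inflammation, were higher in 15 of 24 tested members, in 11 with genotype as covariate and 4 with Y-linked expression as covariate. Among them Itih4 changed by 3.76 (SE 0.70, adjusted p = 0.00158) and Saa4 by 3.82 (SE 0.73, adjusted p = 0.00173), both without overlap.

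Amino acid and nitrogen metabolism gave 37 higher and no lower genes of 42 tested (median 3.29), and 31 higher with genotype as covariate. The shares higher over all genes were 17.6% and 10.8%. Fah, the last enzyme of tyrosine breakdown, stood at 47.2, 153 and 318 CPM in hepatocyte-high and 4.41, 8.73 and 20.8 CPM in hepatocyte-low libraries, with no overlap and a change of 3.87 (SE 0.45, adjusted p = 0.000373). Nags makes the activator of the urea cycle's first enzyme and changed by 4.27 (SE 0.64, adjusted p = 0.000565). Slc25a13, the aspartate and glutamate carrier of liver mitochondria, changed by 2.29 (SE 0.32, adjusted p = 0.000412), and Gnmt, a glycine methyltransferase abundant in hepatocytes, by 3.40 (SE 0.52, adjusted p = 0.000579). Hoga1, of hydroxyproline breakdown, and Gpt2, a mitochondrial alanine transaminase, were among the 12 higher genes with the smallest p. Hoga1 stood at 31, 77.4 and 152 CPM against 3.47, 10.2 and 12.7 CPM, a change of 3.49 (SE 0.41, adjusted p = 0.000373), and Gpt2 at 122, 211 and 285 CPM against 25.5, 34.3 and 83.5 CPM, a change of 2.45 (SE 0.30, adjusted p = 0.000373). Neither gene overlapped between the groups.

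Genes of drug and bile acid metabolism were higher in the hepatocyte-high libraries. Of 46 tested cytochromes P450 and conjugating enzymes 41 were higher (median 3.63), with 26 under the genotype covariate and 16 under the Y-linked covariate. Of 25 bile acid genes 24 were higher (median 3.68), with 21 and 15 under those covariates. Of all genes tested, 17.6% were higher, 10.8% with genotype and 1048 of 13989 with Y-linked expression as covariate. Cyp3a13, a drug-oxidising P450, changed by 3.64 (SE 0.47, adjusted p = 0.000373), the sulfotransferase Sult1a1 by 4.09 (SE 0.56, adjusted p = 0.000407) and the epoxide hydrolase Ephx2 by 4.31 (SE 0.67, adjusted p = 0.000629). Ephx2 reached 46, 254 and 464 CPM in hepatocyte-high libraries, against 1.48, 9.06 and 32 CPM in hepatocyte-low libraries, with no overlap. Cyp27a1 opens the acidic route of bile acid synthesis and changed by 3.44 (SE 0.52, adjusted p = 0.000565). Acox2 shortens the side chain of bile acid precursors in peroxisomes and stood at 45.7, 109 and 305 CPM against 1.16, 7.71 and 19.4 CPM, a change of 3.94 (SE 0.65, adjusted p = 0.000875). Akr1d1, the bile acid 5-beta-reductase, changed by 4.20 (SE 0.65, adjusted p = 0.000623), with overlap between the groups.

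Genes of energy metabolism were higher too. Of 34 genes of fatty acid oxidation and ketone bodies 32 were higher (median 1.96; 27 with genotype as covariate), and of 35 genes of fatty acid and cholesterol synthesis 32 were higher (median 1.79; 23 with genotype as covariate). Breakdown and synthesis genes thus moved the same way, beside 17.6% higher over all genes and 10.8% with genotype as covariate. Acsl1, which activates long fatty acids, stood at 191, 586 and 839.5 CPM in hepatocyte-high libraries and 21.5, 49.5 and 161 CPM in hepatocyte-low libraries, a change of 3.15 (SE 0.47, adjusted p = 0.000529). On the synthesis side Fdps, which makes farnesyl diphosphate, changed by 2.78 (SE 0.41, adjusted p = 0.000528). All 18 tested genes of hepatocyte glucose handling were higher (median 3.23), 17 of them with genotype as covariate. Pygl, liver glycogen phosphorylase, changed by 3.08 (SE 0.41, adjusted p = 0.000381), and Gys2, liver glycogen synthase, by 4.14 (SE 0.57, adjusted p = 0.000412). Slc37a4, the glucose 6-phosphate carrier of the endoplasmic reticulum, changed by 2.16 (SE 0.28, adjusted p = 0.000373). Its neighbour in that compartment, H6pd, stood at 38.5, 59.6 and 203 CPM against 5.99, 10.7 and 14.9 CPM, without overlap and with a change of 3.12 (SE 0.37, adjusted p = 0.000373).

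Growth hormone and IGF genes gave 9 higher of 13 tested (4 with genotype and 5 with Y-linked expression as covariate). Of all genes tested, 17.6% were higher, 10.8% with genotype and 1048 of 13989 with Y-linked expression as covariate. Igfals, the liver-made subunit that holds IGF in plasma, stood at 15.8, 72.1 and 158 CPM in hepatocyte-high libraries, against 0, 1.48 and 4.66 CPM in hepatocyte-low libraries, a change of 5.09 (SE 0.71, adjusted p = 0.000412). Igfbp1, an insulin-repressed IGF binding protein, stood at 185, 651 and 1041 CPM against 11.9, 25.8 and 183 CPM, a change of 3.40 (SE 0.61, adjusted p = 0.00128). Neither overlapped. Igf1 itself stood at 10.9, 80.6 and 455 CPM against 19.9, 61.7 and 129.8 CPM and was not called (adjusted p = 0.297). The stress genes of the unfolded protein response were higher in 17 of 22 members with a median of 0.78, and in 5 with genotype as covariate. The count was 4 with Y-linked expression as covariate, 6 without the 3 lowest-scoring libraries and 13 with upper-quartile factors. Trib3, a pseudokinase induced by that response, stood at 13.2, 22.7 and 37.2 CPM against 1.24, 1.89 and 5.4 CPM, with no overlap and a change of 3.29 (SE 0.38, adjusted p = 0.000373). The other higher genes of the 12 with the smallest p were Gprc5c, an orphan receptor (2.85, adjusted p = 0.000365), Sephs2, of selenium metabolism (2.13, adjusted p = 0.000365), Echdc3 (3.60, adjusted p = 0.000365), Qsox1, a secreted disulfide-forming enzyme (2.35, adjusted p = 0.000373), Lrp1, the remnant lipoprotein receptor (2.07, adjusted p = 0.000373), and Esam, which is described with the endothelial genes. None of these 6 genes overlapped between the groups, where 4.42% of all genes tested had every hepatocyte-high library above every hepatocyte-low one. They were picked by their p in this split, so the lack of overlap only describes them.

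**Figure D3:**
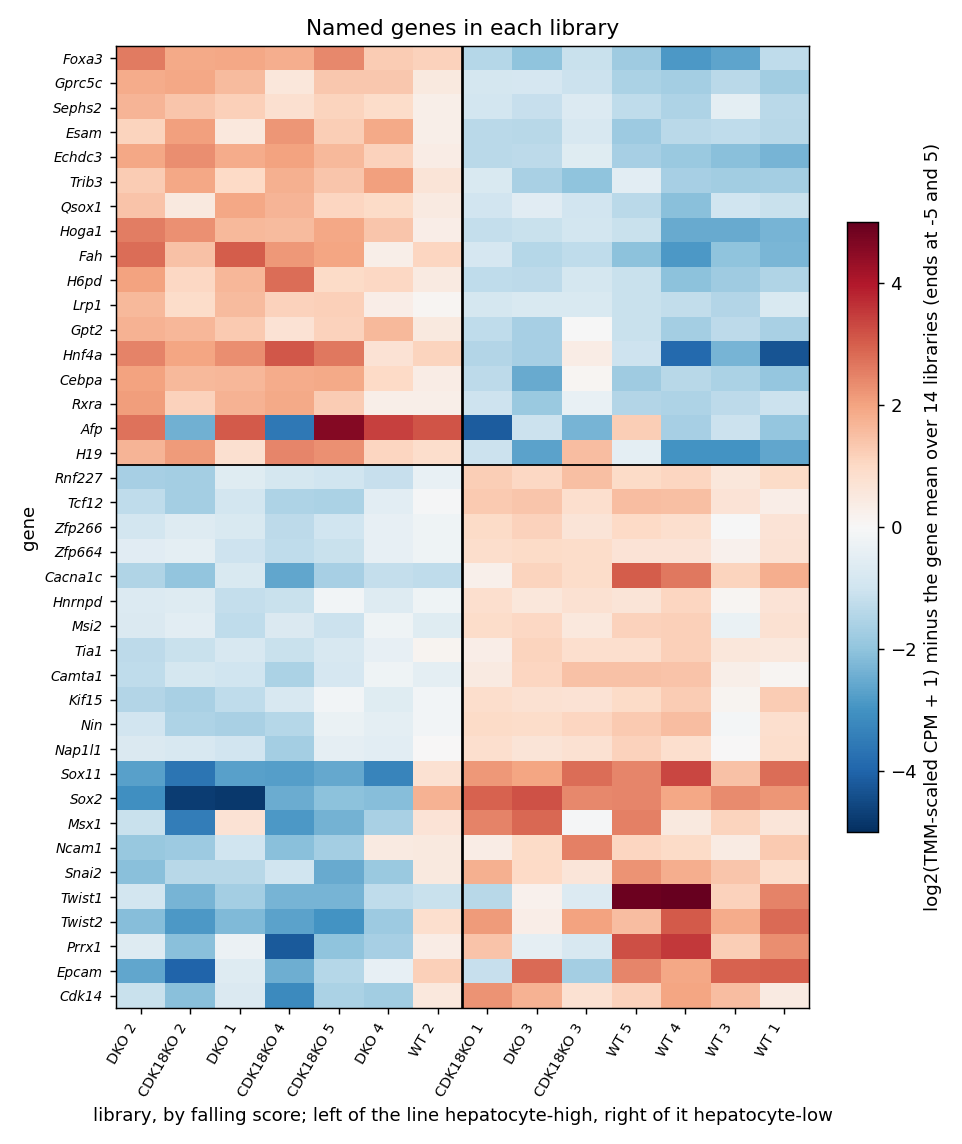
Log2(TMM-scaled CPM + 1) of each gene minus its mean over the 14 libraries (colour), for the 12 higher and 12 lower genes with the smallest p and for 15 genes of the lists; libraries run by falling score, with the 7 hepatocyte-high ones left of the vertical line. WT 2, the hepatocyte-high library next to the line, has Sox11 at 297 and Sox2 at 234 CPM, above the other 6 hepatocyte-high libraries.

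Genes of the perivenous and β-catenin list were called in both directions. Of 25 tested, 16 were higher (11 with genotype as covariate) and 5 lower (4 with genotype as covariate). Over all genes, 17.6% were higher and 12.2% lower. With Y-linked expression as covariate 9 list members were higher and none of the 5 was called lower. Without the 3 lowest-scoring libraries 9 list members were higher. The higher members included enzymes and carriers of perivenous hepatocytes. Glul, glutamine synthetase, stood at 371, 1698 and 5340.2 CPM in hepatocyte-high libraries, against 220.1, 409 and 929.7 CPM in hepatocyte-low libraries, a change of 2.33 (SE 0.52, adjusted p = 0.00443) with overlap. Cyp2e1, the ethanol-inducible P450, changed by 4.34 (SE 0.89, adjusted p = 0.00249), the ammonium carrier Rhbg by 4.40 (SE 0.95, adjusted p = 0.0035), and Lect2, a secreted factor and known β-catenin target in liver, by 4.52 (SE 0.66, adjusted p = 0.000513). Lect2 did not overlap, at 48.3, 165 and 379 CPM against 0.371, 9.26 and 14.3 CPM.

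All 5 lower members are feedback regulators or factors of the Wnt pathway itself. Axin2, a scaffold of the complex that degrades β-catenin, stood at 20.4, 76.1 and 141 CPM in hepatocyte-high libraries and 101, 227 and 324 CPM in hepatocyte-low libraries, a change of -1.35 (SE 0.34, adjusted p = 0.00806). Nkd1, an inhibitor of Dishevelled, stood at 6.28, 53.9 and 298 CPM against 271, 343 and 553 CPM, a change of -2.07 (SE 0.63, adjusted p = 0.0216), and lost its call without CDK18KO 2 or DKO 2. Notum, a secreted enzyme that inactivates Wnt, changed by -1.29 (SE 0.39, adjusted p = 0.0197). The transcription factor Sp5 (-1.67, adjusted p = 0.0462) and the ubiquitin ligase Znrf3 (-0.84, adjusted p = 0.0343) were the weakest of the 5. Sp5 lost its call in 11 of the 14 fits that left out 1 library, those without CDK18KO 1, 2, 3 or 4, any DKO library, or WT 3, 4 or 5. Znrf3 lost it in 8, those without CDK18KO 1, 4 or 5, DKO 1 or 3, or WT 2, 4 or 5. The receptor Lgr5 (-0.14, adjusted p = 0.831) and the ligase Rnf43 (-0.25, adjusted p = 0.476) were not called. The injected drivers were not called either. Ctnnb1 stood at 501, 581 and 1108 CPM against 640.4, 834 and 1282 CPM, and its fold change on the log2 scale was -0.43 (SE 0.20, adjusted p = 0.121). Myc stood at 5.32, 9.71 and 33.9 CPM against 14.5, 22.4 and 38.6 CPM, and its fold change was -0.83 (SE 0.37, adjusted p = 0.0995). What share of their counts came from the plasmids was not tested.

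Some developmental genes were lower in the hepatocyte-high libraries. Of 33 neural and developmental genes listed, 16 passed the filter on low counts; 6 of the 16 were lower in the hepatocyte-high libraries and none higher, with a median of -1.80, and 5 were lower with genotype as covariate. Of all genes tested, 12.2% were lower, and 1.97% had every hepatocyte-high library below every hepatocyte-low one. The filter kept genes that were high in the hepatocyte-low tumours, so the 16 do not stand for the list. Sox11, a factor of neural and other progenitor cells, stood at 12.8, 25.4 and 297 CPM in hepatocyte-high libraries, against 476, 936 and 1767 CPM in hepatocyte-low libraries. Its change was -4.0 (SE 0.71, adjusted p = 0.00128), and -4.05 with genotype as covariate (adjusted p = 0.00101). Of the hepatocyte-high libraries, 6 lay between 12.8 and 28.7 CPM and WT 2 stood apart at 297 CPM. Sox2, a factor of pluripotent and neural stem cells, stood at 1.43, 11.6 and 234 CPM against 263, 367 and 634 CPM, a change of -3.28 (SE 0.91, adjusted p = 0.0133). Again WT 2 was the highest of the hepatocyte-high libraries, and no library overlapped. Without the 3 libraries high in Y-linked expression Sox2 was no longer called. Msx1, a homeobox factor, changed by -2.52 (SE 0.74, adjusted p = 0.0187) and Ncam1, a neural adhesion molecule, by -2.02 (SE 0.52, adjusted p = 0.00962), both with overlap. Msx1 lost its call without the 3 libraries high in Y-linked expression, and the list then had 2 lower members, against 3 with Y-linked expression as covariate.

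Mesenchymal transcription factors were lower in the hepatocyte-high tumours. Of 28 genes of epithelial-mesenchymal transition tested, 8 were lower and 3 higher, beside 12.2% lower and 17.6% higher over all genes. With genotype as covariate 8 were lower and none higher, beside 7.76% lower and 10.8% higher over all genes. With Y-linked expression as covariate 4 were lower. The lower members of the list included the core factors Snai1, Snai2, Twist1, Twist2, Zeb1, Zeb2 and Prrx1. Snai2 stood at 1.39, 4.25 and 18.4 CPM in hepatocyte-high libraries and 19.9, 35.5 and 64.8 CPM in hepatocyte-low libraries, without overlap and with a change of -2.66 (SE 0.49, adjusted p = 0.00151). Twist2 stood at 1.39, 3.14 and 33.1 CPM against 23, 76.7 and 160.1 CPM, a change of -3.49 (SE 0.70, adjusted p = 0.00225). Twist1 was below 2 CPM in every hepatocyte-high library and spread widely among the others, at 0, 0.571 and 1.69 CPM against 0.932, 10.2 and 203 CPM, a change of -6.21 (SE 1.26, adjusted p = 0.00242) with overlap. Its highest levels were in WT 4, at 203 CPM, and WT 5, at 149.7 CPM, while the hepatocyte-low knockout tumours had 0.932 to 4.85 CPM. Zeb1 changed by -1.13 (SE 0.29, adjusted p = 0.00895). Snai2, Twist1, Twist2 and Zeb1 kept their calls in every setting tried. Summed fibroblast and stellate cell markers had medians of 436 CPM in hepatocyte-high and 603 CPM in hepatocyte-low libraries, with overlapping ranges, and their part in these factors was not tested. Structural genes of the programme were not called: Cdh1, which encodes E-cadherin, had a log2 fold change of 0.13 (adjusted p = 0.874) and Vim, which encodes vimentin, of -1.04 (adjusted p = 0.281). Cdh2 and Fn1, which hepatocytes express, were among the higher members, with changes of 1.40 and 1.35. Neither was called with genotype as covariate, and Fn1 also lost its call without DKO 2.

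**Figure D4:**
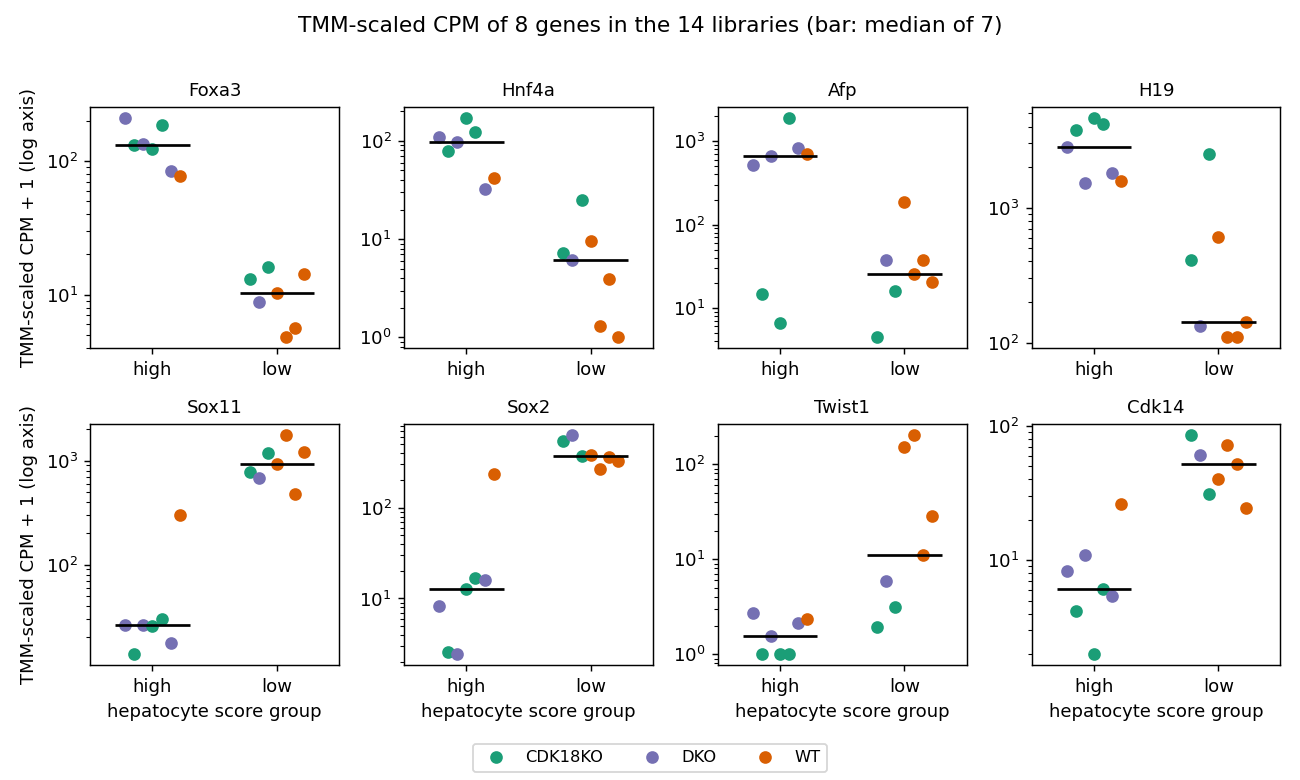
TMM-scaled CPM + 1 (log axis) of 8 genes in each library, hepatocyte-high on the left and hepatocyte-low on the right of each panel, coloured by genotype; the bar is the median of 7 libraries. Foxa3, Hnf4a, Sox11 and Sox2 do not overlap between the groups, while Afp is low in 2 hepatocyte-high CDK18KO libraries, at 13.8 and 5.62 CPM.

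Fetal liver and progenitor genes did not move as a block. Of 24 oncofetal genes tested, 4 were higher and none lower, beside 17.6% higher and 12.2% lower over all genes. The list median was -0.03, close to that of all genes. Afp, the fetal counterpart of albumin and a marker of liver cancer, was among the higher ones, at 5.62, 658 and 1904 CPM in hepatocyte-high libraries and 3.42, 24.3 and 186 CPM in hepatocyte-low libraries, a change of 3.88 (SE 1.05, adjusted p = 0.012). Its spread was wide: CDK18KO 2 and CDK18KO 4 had only 13.8 and 5.62 CPM, whereas CDK18KO 5 had 1904 CPM. H19, an imprinted RNA of fetal liver, stood at 1515, 2831 and 4626 CPM against 108, 141 and 2481 CPM, a change of 2.35 (SE 0.69, adjusted p = 0.0187), with CDK18KO 3 the only hepatocyte-low library above 1000 CPM. Afp lost its call without the 3 libraries with the lowest scores, and H19 without those or without the 3 high in Y-linked expression. Peg10 and Sall4 were called with changes of 2.61 and 2.58 but lost the call in 8 and 9 of the 14 fits that left out 1 library. Those were the fits without CDK18KO 1 or 5, DKO 2, 3 or 4, or WT 1, 3 or 4 for Peg10, and without CDK18KO 1 or 5, DKO 1, 2 or 3, or WT 1, 3, 4 or 5 for Sall4. The members of the oncofetal list called fell to 2 without CDK18KO 1, CDK18KO 5, DKO 2, DKO 3, WT 1 or WT 4. The RNA-binding proteins Igf2bp1 (-2.37, adjusted p = 0.168) and Lin28b (0.41, adjusted p = 0.72) were not called.

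Biliary and progenitor genes gave 4 lower and 1 higher of 16 tested, beside 12.2% lower and 17.6% higher over all genes. With genotype as covariate 3 were lower and none higher, and with Y-linked expression as covariate none was lower. Epcam, an adhesion molecule of biliary and progenitor cells, stood at 0, 5.1 and 35.9 CPM in hepatocyte-high libraries, against 4.04, 86.4 and 128 CPM in hepatocyte-low libraries, a change of -2.93 (SE 0.87, adjusted p = 0.0198). Among the hepatocyte-low libraries it was low in both CDK18KO tumours, at 6.21 and 4.04 CPM, and at 61.4 CPM or more in the DKO and WT tumours. Krt19, the keratin that defines bile duct cells, stood at 0, 4.51 and 41.7 CPM against 0, 9.26 and 29.7 CPM, and was not called (-0.38, adjusted p = 0.81), nor was Sox9 (-0.06, adjusted p = 0.954). Epcam kept its call in every fit that left out 1 library but lost it without the 3 lowest-scoring libraries. The other lower members, Itga6, Sox4 and Prom1, each lost the call without CDK18KO 2, DKO 2 or DKO 3 and in other settings. The count of lower members was 1 without CDK18KO 2, DKO 2 or DKO 3 and 2 without CDK18KO 4, DKO 4, WT 1, WT 3 or WT 5.

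A minority of the cell cycle genes was lower. Of 40 genes of G2 and mitosis 14 were lower and none higher (median -0.56; 10 lower with genotype as covariate), and of 45 genes of S phase 10 were lower and 1 higher (median -0.42; 4 lower with genotype as covariate). Over all genes 12.2% were lower, and 7.76% with genotype as covariate. Top2a, which untangles chromosomes, stood at 321, 574 and 666 CPM in hepatocyte-high libraries and 548, 1146 and 1369.8 CPM in hepatocyte-low libraries, a change of -0.96 (SE 0.21, adjusted p = 0.00436). Kif23, a motor of cell division, changed by -1.21 (SE 0.24, adjusted p = 0.00214) and did not overlap. Rrm1, the large subunit of ribonucleotide reductase, stood at 64.3, 87.9 and 138 CPM against 166, 187 and 235 CPM, without overlap and with a change of -1.02 (SE 0.19, adjusted p = 0.00153). Pola1, of DNA polymerase alpha, changed by -1.30 (SE 0.26, adjusted p = 0.00235) and Orc6, of the origin recognition complex, by -1.34 (SE 0.26, adjusted p = 0.00199). Mki67, the proliferation marker, stood at 35.1, 93 and 207 CPM against 72.8, 247 and 329 CPM and was not called, with -0.98 (SE 0.37, adjusted p = 0.0593). These counts depended on single libraries: the mitotic list had 6 lower members without DKO 2, 8 without DKO 1 and 9 without CDK18KO 1 or WT 4. The S phase list had 4 without WT 1, 5 without CDK18KO 2 or DKO 2 and 6 without DKO 1. With no filter on low counts the lists had 3 and 4 lower members, and with Y-linked expression as covariate 4 and 3.

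The series title names nuclear pores and DNA repair, and both lists had few members called. Of 29 nuclear pore genes 5 were lower and none higher (median -0.30; 2 lower with genotype as covariate), and of 41 genes of homologous recombination and checkpoint repair 7 were lower and 1 higher (median -0.40; 3 lower and 1 higher with genotype as covariate). These shares, 5 of 29 and 7 of 41, stand beside the 12.2% of all genes that were lower. Nup153, of the nuclear basket, stood at 22.3, 28.1 and 30.8 CPM in hepatocyte-high libraries and 36.4, 47.2 and 62.7 CPM in hepatocyte-low libraries, without overlap and with a change of -0.81 (SE 0.18, adjusted p = 0.00438). Nup205, of the inner ring, changed by -0.86 (SE 0.22, adjusted p = 0.00927). Topbp1, an activator of the ATR checkpoint, changed by -0.74 (SE 0.18, adjusted p = 0.00748), and Rad51b, of homologous recombination, was the higher one, at 2.26 (adjusted p = 0.00388). The pore list had 2 lower members without DKO 2, 3 without CDK18KO 2 or WT 4 and 8 without CDK18KO 5. The repair list had 4 without CDK18KO 2, CDK18KO 3, DKO 2, WT 1 or WT 4 and 11 without CDK18KO 5. With no filter on low counts the pore list had 0 lower members and the repair list 1, while DESeq2 called 6 and 9.

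Ribosome biogenesis genes driven by Myc gave 2 lower of 44 and none higher (median -0.33), beside 12.2% lower over all genes. The count was 11 with upper-quartile factors, 5 with DESeq2 or a mean of at least 5 CPM, and 1 with genotype or Y-linked expression as covariate. Nop56, a core protein of small nucleolar ribonucleoproteins, changed by -1.02 (SE 0.26, adjusted p = 0.00935). The count of lower members was 9 without CDK18KO 5, 7 without WT 3 and 1 without CDK18KO 2, DKO 2, WT 1 or WT 4. Myc and its network gave 2 lower of 11, and both of these, Mga (-0.63, adjusted p = 0.0343) and Mlxip (-1.06, adjusted p = 0.0223), lost their calls without CDK18KO 2, DKO 2 or WT 1. Without CDK18KO 3, DKO 1, WT 4 or WT 5 only Mlxip was called, and neither was with genotype or Y-linked expression as covariate or with no filter on low counts. Of 25 genes of glycolysis and hypoxia 1 was lower, P4ha1, a collagen prolyl hydroxylase induced by hypoxia (-1.50, adjusted p = 0.00751), with 2 lower without CDK18KO 5 or WT 2 and 3 without DKO 4. The p53 list had 2 higher and 3 lower of 22, beside 17.6% higher and 12.2% lower over all genes. Gdf15, a stress hormone, stood at 46.7, 68.1 and 132 CPM in hepatocyte-high libraries, against 6.67, 23.6 and 34.7 CPM in hepatocyte-low libraries, a change of 1.90 (SE 0.35, adjusted p = 0.00139). Trp53 itself changed by -1.19 (adjusted p = 0.0273), a call lost without CDK18KO 1 or DKO 3.

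Of the 12 lower genes with the smallest p, 10 did not overlap between the groups. Over all genes tested, 1.97% had every hepatocyte-high library below every hepatocyte-low one. The 12 were picked by their p in this split, so the lack of overlap describes them and is no further result. Tcf12, a basic helix-loop-helix factor of progenitor cells, stood at 92, 126 and 292 CPM in hepatocyte-high libraries, against 378, 749 and 875 CPM in hepatocyte-low libraries, a change of -2.11 (SE 0.29, adjusted p = 0.000412). Hnrnpd (AUF1), which binds AU-rich elements of mRNA, stood at 106, 156 and 221 CPM against 264, 395 and 515 CPM, with a change of -1.31 (SE 0.20, adjusted p = 0.000584). Tia1, a stress granule protein, changed by -1.51 (SE 0.24, adjusted p = 0.000691), and Msi2, a translational regulator of stem cells, by -1.52 (SE 0.23, adjusted p = 0.000585). The other two of the 12, which overlapped, were Msi2 and Nap1l1, a histone chaperone (-1.42, adjusted p = 0.000848). The zinc finger genes Zfp266 and Zfp664 changed by -1.51 and -1.43 (adjusted p = 0.000412 and 0.000412), and Camta1, a calmodulin-binding factor, by -1.92 (adjusted p = 0.000719). Kif15, a spindle motor, stood at 35.6, 62.8 and 102 CPM against 124, 207 and 272 CPM, with a change of -1.67 (SE 0.27, adjusted p = 0.000755), and Nin, which anchors microtubules at the centrosome, changed by -1.85 (SE 0.30, adjusted p = 0.00077). Cacna1c, a calcium channel subunit, was nearly silent in the hepatocyte-high libraries, at 0, 1.13 and 2.57 CPM against 6.21, 12.2 and 48.6 CPM, with a change of -4.03 (SE 0.61, adjusted p = 0.000567). Rnf227 had the smallest p of the lower genes, at 1.6, 3.24 and 5.5 CPM against 11.6, 16.2 and 23 CPM and a change of -2.28 (SE 0.31, adjusted p = 0.000381). Within genotypes, all 24 genes with the smallest p separated the groups the same way in CDK18KO tumours (3 against 2) and in DKO tumours (3 against 1), and 23 of the 24 did so in WT tumours (1 against 4). The genes were picked for this difference over the same libraries, so this describes them and adds no test.

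Of the 8 kinases, cyclins and drivers tested, only Cdk14 was called, and 12.2% of all genes were lower. A single call among 8 genes is near that share. Cdk14, a relative of Cdk16 and Cdk18 that works with cyclin Y, stood at 0.991, 5.1 and 25 CPM in hepatocyte-high libraries, against 23.4, 50.9 and 84.5 CPM in hepatocyte-low libraries, a change of -2.61 (SE 0.53, adjusted p = 0.00236) that was kept in every setting tried. WT 2, at 25 CPM, was the highest of the hepatocyte-high libraries and lay above WT 1, at 23.4 CPM. Cdk16 (-0.52, adjusted p = 0.139), Cdk17 (-0.03, adjusted p = 0.941) and Cdk18 (0.14, adjusted p = 0.872) were not called, nor were the cyclin Ccny (0.14) and its relative Ccnyl1 (-0.32). The 8 kinases, cyclins and drivers tested had 3 lower members without DKO 4 and 2 without WT 2.

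Interferon and antigen presentation genes were higher in 23 of 34 members and lower in none (median 1.84). With genotype as covariate 12 were higher, and 4 with Y-linked expression as covariate. Of all genes tested, 17.6% were higher, 10.8% with genotype and 1048 of 13989 with Y-linked expression as covariate. Irf1, an interferon-induced transcription factor, stood at 55.6, 120 and 143 CPM in hepatocyte-high libraries, against 13.5, 26.1 and 44.5 CPM in hepatocyte-low libraries, without overlap and with a change of 1.91 (SE 0.29, adjusted p = 0.000565). Usp18, a brake on interferon signalling, changed by 2.93 (SE 0.49, adjusted p = 0.000972) and Igtp, an interferon-induced GTPase, by 3.17 (SE 0.56, adjusted p = 0.00121). B2m, the light chain of MHC class I, changed by 1.82 (SE 0.45, adjusted p = 0.00746), and its partner H2-K1, which may share reads with other class I genes, by 1.59 (SE 0.38, adjusted p = 0.00677), and neither was called with genotype as covariate. The T and NK cell markers Cd3d, Cd3e, Trac and Nkg7 were near 0 in all libraries: they summed to 0.550, 4.57 and 9.58 CPM in hepatocyte-high and 0, 0.324 and 1.55 CPM in hepatocyte-low libraries, and none passed the filter. Macrophage markers summed to 18.5, 40.0 and 151 CPM against 13.0, 21.4 and 49.4 CPM, and none of the 4 tested was called. Of 25 macrophage genes tested only Cd74, the MHC class II chaperone, was higher, beside 17.6% of all genes. The Cd74 call was lost without CDK18KO 2 or 3, DKO 1, 2 or 3, or WT 1, 3, 4 or 5. In this list 2 genes were higher without CDK18KO 1 and 3 without CDK18KO 4. The part of these cells in the interferon genes was not tested.

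**Figure D5:**
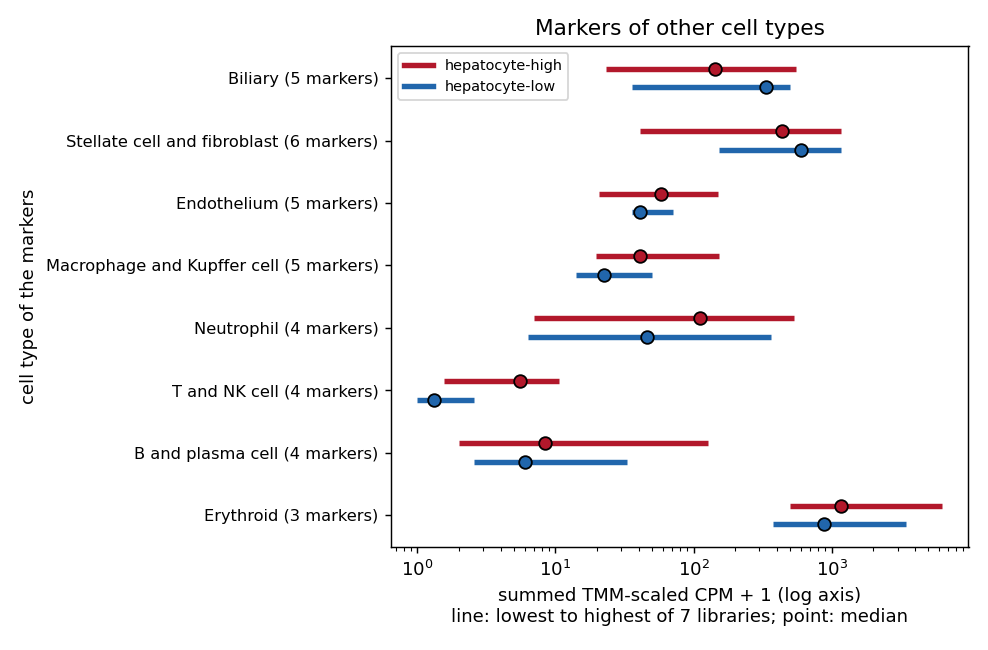
Summed TMM-scaled CPM + 1 of the markers of 8 cell types other than hepatocytes (log axis); the line runs from the lowest to the highest of 7 libraries and the point is the median, with hepatocyte-high above hepatocyte-low. The ranges of the groups overlap for each of the 8 cell types.

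Summed defining markers of other cell types overlapped between the groups. Fibroblast and stellate cell markers summed to 39.6, 436 and 1160 CPM in hepatocyte-high libraries, against 152, 603 and 1170 CPM in hepatocyte-low libraries. The abundant collagens Col1a1 (-0.34, adjusted p = 0.688) and Col1a2 (-0.55, adjusted p = 0.481) were not called. Of 25 stromal genes tested, out of 28 listed, 6 were lower (2 with genotype and 0 with Y-linked expression as covariate). The share of all genes that was lower was 12.2%, and 7.76% with genotype as covariate. Cxcl12 was higher, a call lost under either covariate, with upper-quartile factors and without CDK18KO 1, 2, 3 or 5, DKO 1 or 2, or WT 1, 3 or 4. Fbn1, the fibrillin of microfibrils, stood at 1.85, 8.34 and 22.5 CPM against 20.2, 31.9 and 81 CPM, a change of -1.97 (SE 0.50, adjusted p = 0.00881). The matrix protein Postn changed by -2.80 (SE 0.76, adjusted p = 0.0119) and was not called with genotype as covariate. Of the 6, Fbn1 and Postn alone kept the call in every fit that left out 1 library, and neither was called with Y-linked expression as covariate. The count of lower stromal genes was 2 without DKO 2 or WT 5 and 3 without CDK18KO 2, CDK18KO 5 or WT 4.

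Endothelial markers summed to 19.5, 57.6 and 149 CPM in hepatocyte-high and 34.6, 40.1 and 69.6 CPM in hepatocyte-low libraries. Of 18 endothelial genes tested, out of 26 listed, Esam and Robo4 were higher, beside 17.6% higher over all genes. The whole list summed to 295, 567.95 and 674 CPM in hepatocyte-high and 202, 232 and 252 CPM in hepatocyte-low libraries, without overlap, and 16 of the 18 had a positive log2 fold change. Esam, an adhesion molecule of endothelial junctions, stood at 54.3, 103 and 208 CPM against 11.6, 16.7 and 24.5 CPM, with no overlap and a change of 2.86 (SE 0.32, adjusted p = 0.000365). The defining genes Pecam1 (0.46, adjusted p = 0.44) and Cdh5 (0.14, adjusted p = 0.829) were not called. Robo4 was at most 6.29 CPM and lost its call without CDK18KO 1, CDK18KO 2, DKO 1, DKO 2, WT 1, WT 3, WT 4 or WT 5. Neutrophil markers summed to 5.95, 111 and 536 CPM against 5.28, 45.1 and 362 CPM; of 11 genes tested, out of 19 listed, Prtn3, a granule protease, was higher by 4.01 (SE 0.73, adjusted p = 0.0014) and Wfdc21 by 3.00 (adjusted p = 0.0481). Wfdc21 lost its call without CDK18KO 1, CDK18KO 3, DKO 1, DKO 2, WT 1, WT 3, WT 4 or WT 5, and 5 neutrophil genes were higher without DKO 3. B cell genes gave 0 of 6 and erythroid genes 0 of 11 called by edgeR, and without DKO 3 these counts were 3 and 5. At an unadjusted p under 0.05 there were 2 in each list, and DESeq2 called 1 B cell gene and 2 erythroid genes. Biliary markers summed to 22.1, 143 and 549 CPM in hepatocyte-high and 35.1, 333 and 501 CPM in hepatocyte-low libraries.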

How the data were processed

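RNA was measured by 3′ sequencing in 14 tumour libraries. The authors deposited whole-number counts per gene, 1 column per library, and all columns were matched to the labels by name (0 were left unused). Per the submitters' processing notes, DESeq2 1.32.0, STAR 2.7.11a, UMI-tools 1.1.2, FastQC and HTSeq 1.99.2 were used in unstated roles, beside the genome builds mm10 and GRCh38. The treatment of UMI duplicates and the gene annotation are not given in the sources used here. The labels' protocols describe a stranded kit.

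CPM and TMM-scaled CPM were computed here from the deposited counts. Of 77981 genes, 13997 passed edgeR's filterByExpr by genotype and held 99.0% of counts; the 8 score genes were left out of the tests. edgeR 4.0.16 in R 4.3.3 fitted quasi-likelihood models with TMM factors (common biological coefficient of variation 0.53), and p-values were adjusted by Benjamini-Hochberg over 13989 genes, with calls at an adjusted p under 0.05. SE is the log2 fold change divided by the root of F. Scripts were tested on simulated data. DESeq2 1.42.0 was an alternative, with other scalings, filters, covariates and left-out libraries.

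The named genes are the 12 higher and 12 lower with the smallest p at a mean of at least 10 CPM in the group where they are higher, Gm-numbered, Rik and mitochondrial genes left out, then up to 4 members of each of 33 lists with the smallest p, and 10 genes always named (Cdk16, Cdk18, Myc, Ctnnb1, Afp, Krt19, Epcam, Hnf4a, Cebpa, Mki67). Some genes that the rule names are not reported here. Other list members are named where a count is broken down, and were chosen with their values known. The score genes, lists and split were chosen with earlier results of these data known. Replicates are separate tumours, but the groups were made from expression in the same 14 libraries. The p-values therefore say only whether a gene followed the score over these libraries.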

Additional observations from a re-analysis of the deposited data

Results flagged for a closer look

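Single libraries stood far from the other 6 of their group in 7 of 68 groups looked at, where chance gives about 1 in 20; values are TMM-scaled CPM. Among hepatocyte-low libraries, WT 3 was lowest for 4 genes: Zfp266 at 123.4 CPM (next 198.4), Zfp664 at 92.56 CPM (next 126.5), Nin at 59.38 CPM (next 115.3) and Mki67 at 72.77 CPM (next 180.6). Gpt2 was highest in CDK18KO 3 among the hepatocyte-low libraries, at 83.54 CPM (next 39.34). Ctnnb1 was highest in DKO 4 among the hepatocyte-high libraries, at 1108 CPM (next 642.6), and in WT 5 among the hepatocyte-low libraries, at 1282 CPM (next 857.8).

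Cdk16 separated the score groups in opposite directions by genotype, a difference that was not tested. It was lower in every hepatocyte-high CDK18KO and DKO library than in the hepatocyte-low ones of its genotype. The hepatocyte-high WT library, at 59.21 CPM, lay above the 4 hepatocyte-low WT libraries. The CDK18KO gap was narrow, with CDK18KO 2 at 36.69 CPM and CDK18KO 3 at 36.96 CPM. DKO, where Cdk16 is a deleted gene, had only 1 hepatocyte-low library, and WT only 1 hepatocyte-high library.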

How the results depend on the processing

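The first comparison had 4173 genes called (2461 higher, 1712 lower). It kept within 1.5 times that count with DESeq2, RLE or upper-quartile factors, either filter, the score as a number, the TMM-scaled score and without the 2 libraries next to the threshold, between 3765 and 4892. It moved to 2596 (1511 higher, 1085 lower) with genotype as covariate, 1700 (1048, 652) with Y-linked expression as covariate and 2207 (1407, 800) without the 3 lowest-scoring libraries. That setting and the one without the 3 libraries high in Y-linked expression (3105, and 1896 with genotype as covariate) were chosen after seeing the data. Leaving out 1 library gave 3296 to 4813 genes (2091 to 2640 higher, 1144 to 2173 lower). The genotype-covariate fit gave 828 to 3001 (613 to 1698 higher, 215 to 1353 lower) in the same way. With the replicate number as a block, 2027 genes were called (1177 higher, 850 lower), and 736 (412, 324) with genotype and the block together; with the block alone the perivenous list had 2 higher members, against 16, and the biliary list 0 lower, against 4. The numbers are not shown to pair tumours: deviations of same-numbered tumours correlated between -0.26 and 0.68, over 0.1 in 6 of 13 pairs. Of 445 called list members and named genes, 85 lost the call in at least 1 fit without a library, 122 with genotype, 204 with Y-linked expression, 211 with the block and 0 with DESeq2; the cause was not tested. Medians near 0 changed sign. That of the oncofetal genes (-0.03) became 0.10 with no filter, 0.29 with genotype, 0.0694 with the block, 0.0803 with Y-linked expression, 0.24 without the 3 lowest-scoring libraries, and -0.24 to 0.18 with 1 library left out. That of glycolysis and hypoxia (-0.03) became 0.0905 with no filter, 0.0027 with genotype, 0.0139 with Y-linked expression and -0.39 to 0.0601 with 1 library left out. That of T and NK genes (0.16, 2 genes) became -0.18 with the block and -0.17 to 0.34 with 1 library left out, and that of erythroid genes (1.004) ran from -0.14 to 2.20. With kept counts only, library totals gave an exact permutation p of 0.689. Genes under the filter, such as most T cell markers, could not be compared at this depth.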

Other observations

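Further genes of the Wnt pathway and of neural and germ cells were among the 546 lower genes that passed 4-fold. They were chosen after their values were seen. How many genes of these kinds did not change or went the other way was not counted. Lef1, a transcription factor that works with β-catenin, stood at 0, 7.22 and 46.6 TMM-scaled CPM in hepatocyte-high libraries (lowest, median and highest), against 69.6, 121 and 195 CPM in hepatocyte-low libraries, a log2 fold change of -3.03 (SE 0.69, adjusted p = 0.00482). Dact1, a Dishevelled partner, changed by -2.89 (SE 0.64, adjusted p = 0.00417), and the membrane inhibitor Apcdd1 by -2.39 (SE 0.63, adjusted p = 0.011). Wif1, a secreted Wnt inhibitor, stood at 4.79, 54.2 and 545 CPM against 449, 908 and 1757 CPM, a change of -2.46 (SE 0.78, adjusted p = 0.0269) whose call was lost without DKO 2 or WT 5. Among these 4 genes Lef1 and Dact1 kept the call in every setting tried. Apcdd1 and Wif1 lost it with Y-linked expression as covariate, without the 3 libraries high in Y-linked expression and without the 3 lowest-scoring libraries.

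Bcl11a, a zinc finger repressor of blood and brain cells, stood at 2.13, 10.2 and 76.5 CPM in hepatocyte-high libraries and 116, 186 and 285 CPM in hepatocyte-low libraries, a change of -3.25 (SE 0.62, adjusted p = 0.00178). Trps1, a GATA-type repressor, changed by -3.43 (SE 0.66, adjusted p = 0.00183), the neuronal RNA-binding protein Elavl2 by -4.55 (SE 1.03, adjusted p = 0.00444), the neural factor Sox21 by -2.93 (SE 0.72, adjusted p = 0.00724) and the germ cell gene Tex15 by -3.87 (SE 0.75, adjusted p = 0.00191). For Bcl11a, Trps1, Elavl2 and Tex15 the call was kept in every setting tried, with genotype-covariate changes of -3.34, -3.35, -4.60 and -3.94. In all 5 of these genes the highest hepatocyte-high library lay below 100 CPM.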
